A study of Mus musculus with 12 samples.

Results

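Muscle progenitors made from mouse pluripotent stem cells by way of a teratoma, a mixed-tissue tumour, were compared before and after they had spent 1 month in muscle. The comparison took 6 of the 12 RNA-seq libraries of the study, 3 after and 3 before transplantation, chosen by their labels alone. All 12 libraries came from mononuclear cells digested out of tissue and isolated by flow cytometry for the surface proteins α7-integrin and VCAM, and against CD31, found on endothelium, and CD45, found on leukocytes. The strain label was 129P2/OlaHsd throughout. The teratoma group held cells of 3-week-old teratomas. The transplant group held cells taken back from tibialis anterior muscle 1 month after such teratoma-derived cells had been put there. The 2 native groups, used here only as a reference, were whole embryos at E14.5 and hindlimbs of 8-week-old males. No allele, reporter or other agent is named for any group, and neither the host strain nor any injury of the host muscle is given in the sources used here. The submitters describe 3 biological replicates without saying how many teratomas or hosts stand behind them. A p-value here rests on the spread within all 4 groups of 3 such samples, fitted together, and that spread may be technical.

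Skeletal muscle keeps a resident stem cell, the satellite cell, beneath the basement membrane that wraps each fibre. Such cells carry the transcription factor Pax7, leave the cell cycle when muscle is at rest, and on activation divide and pass through Myf5 and Myod1 to myogenin (Myog) before they fuse into fibres. Fetal progenitors also carry Pax7 but divide, and they express imprinted growth genes that fall silent after birth.

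Values are FPKM, fragments scaled to transcript length and to the mapped total of the library, in the order of replicates 1, 2 and 3 or as mean ± SD (n = 3). Changes are transplant minus teratoma on the log2(FPKM + 1) scale, which understates the change of low genes. A gene was called at a limma adjusted p under 0.05 among the 12699 genes that reached 1 FPKM in 3 or more of the 12 libraries. FPKM files hold no read counts. The spacing of FPKM values under 0.3 put the depth of the 6 libraries between 0.933 and 1.08 times that of teratoma replicate 1, with the absolute depth unknown. Small RNA took 58.1% to 90.1% of the FPKM sum in these libraries. Between 11609 and 12000 genes reached 1 FPKM in the teratoma libraries, and 10738 to 10832 in the transplant libraries. Across genes, the mean Pearson correlation was 0.909 for pairs of teratoma libraries, 0.917 for pairs of transplant libraries and 0.835 for mixed pairs. Single genes were listed at 0 in 1 library while both group mates had at least 5 FPKM 6 to 24 times a library, so a 0 is given as listed.

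After 1 month in muscle, 531 genes were higher (4.18% of those tested) and 2343 lower (18.5%), or 22.6% in either direction. With predicted, small RNA and histone genes and those under 5 FPKM left aside, the 10 largest increases were those of the cell cycle inhibitor Cdkn2a and of Tnmd, Fbln7, Thbs4, Epyc, Igfbp6, Prelp, Kera, Gsn and Itgbl1, most of them matrix or secreted proteins. On the same terms the 10 largest decreases included keratins, secreted gut and liver proteins and a glial filament. The median gene changed by -0.28, and scaling decided how the calls divided. Higher genes were 18.5% of the calls in the deposited values. They were 43.3% after median-ratio scaling (922 higher, 7.26% of genes, and 1208 lower, 9.51%, with a median change of -0.03), 45.6% after quantile normalization (1096 and 1309) and 36.6% when small and ribosomal RNA was left out and libraries rescaled (834 and 1444). Large changes leaned the same way. Of the called genes, 58 rose and 307 fell by at least 2 on the log2 scale, and 5 rose and 31 fell by at least 4. Leaving out teratoma replicate 1 gave 334 higher and 1372 lower genes, leaving out transplant replicate 1 gave 341 and 1464, and leaving out transplant replicate 2 gave 348 higher genes.

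**Figure D1:**
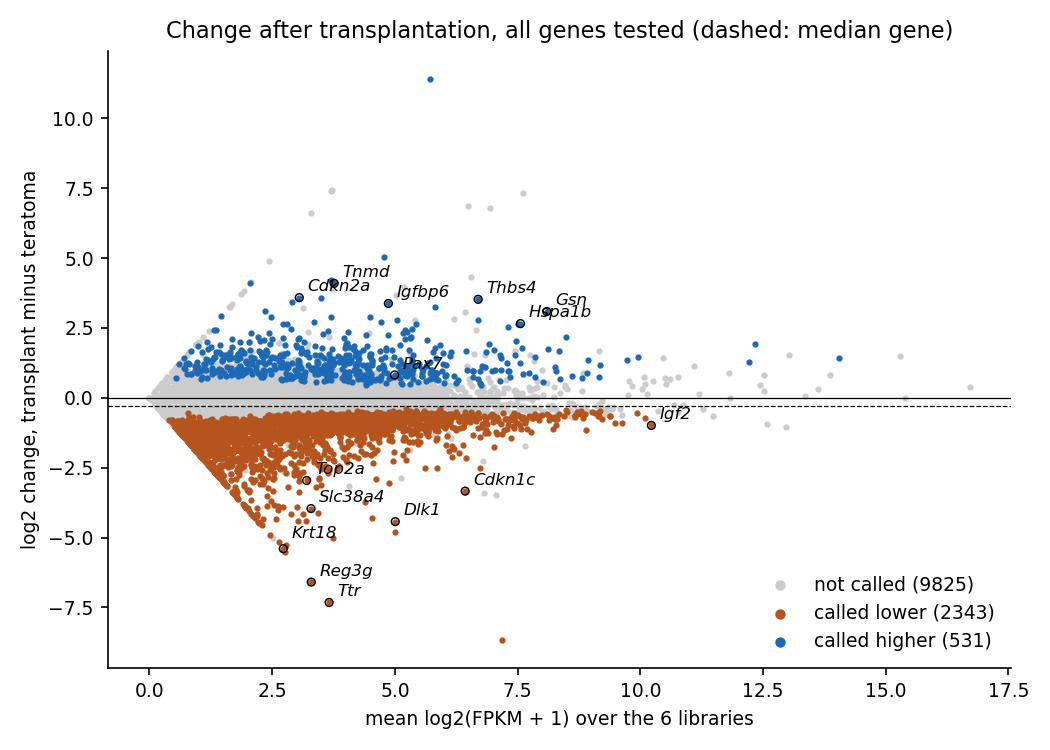
Each point is a gene. The horizontal axis is its mean log2(FPKM + 1) over the 6 libraries and the vertical axis its log2 change, transplant minus teratoma, with the 531 genes called higher in blue, the 2343 called lower in orange and the rest in grey. The dashed line is the median change of -0.28. Tnmd is at 4.10 and Ttr at -7.32.

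The sort and lineage genes were read first. Pax7, the transcription factor that marks satellite cells (mm10 chromosome 4 from 139737062 to 139833528), stood at 25.5, 23.5 and 20.1 in teratoma and at 39.8, 32.3 and 54.8 in transplant. Every transplant library was above every teratoma library, and the change was 0.82 (SE 0.19, adjusted p = 0.0103). Genes for the sorted antigens stayed in the same range. Itga7, which encodes α7-integrin, was at 48.2, 43.3 and 40.2 before and 34.9, 39 and 55.5 after, and Vcam1 at 119.7, 82.8 and 66.7 before and 68.7, 91.6 and 87.7 after. Both pairs of groups overlapped and neither gene was called (adjusted p = 0.866 and 0.808). Pecam1, which encodes CD31, was at 9.62, 5.49 and 6.13 and then 2.10, 2.36 and 1.42, without overlap but not called (adjusted p = 0.0613). It was called in a fit of the 6 libraries alone (adjusted p = 0.0127). Ptprc, which encodes CD45, was too low to be tested, with maxima of 1.44 FPKM in teratoma and 0.308 in transplant. Hprt, the purine salvage enzyme, was at 0.579, 1.69 and 1.45 in teratoma and 2.02, 0.323 and 0.152 in transplant, against 44.5 ± 12.3 in adult and 32 ± 10.6 in embryo cells.

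The factors that follow Pax7 did not pass the test. Myf5, the earliest of the myogenic determination factors, was at 71.5, 49.9 and 43.9 before and 53.3, 52.6 and 68.1 after. Myod1, the determination factor induced on activation, was at 62.2, 37.1 and 51.9 and then 29.8, 39.1 and 56.1. Myog, which drives differentiation, was at 19.5, 30.1 and 39.6 and then 42.9, 32.6 and 46.6. The 2 groups overlapped for all 3 genes (adjusted p = 0.783, 0.524 and 0.405), and adult cells held 403 ± 52.7 FPKM of Myod1. Pax3, the partner of Pax7 in the embryo, was below 1 FPKM in all 6 libraries. Of 28 lineage transcription factors, all of which were tested, 7 rose and 2 fell (25% and 7.14%, beside 4.18% and 18.5% of all genes). Their median change was 0.01. The homeobox genes Meox1 and Meox2, known from the early somite and limb muscle, had the largest increases. Meox1 went from 1.07, 2.57 and 1.97 to 18.9, 22.7 and 9.94 (change 2.63, SE 0.39, adjusted p = 0.000763), and Meox2 from 1.73, 2.93 and 4.70 to 18.5, 17.5 and 13.5 (change 2.14, SE 0.36, adjusted p = 0.00153). No transplant library of either overlapped the teratoma libraries. Id3, which blocks the myogenic factors, changed by 0.85 (SE 0.17, adjusted p = 0.0041), and Heyl, a target of Notch, by 0.76 (SE 0.18, adjusted p = 0.0117). Nfix, which turns the fetal program on, changed by 0.55 (SE 0.15, adjusted p = 0.0215), a call that was lost when teratoma replicate 1 (adjusted p = 0.061), teratoma replicate 2 (0.0548), transplant replicate 1 (0.0718) or transplant replicate 3 (0.0738) was left out.

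Proliferation genes fell together. Of 34 genes of the G2 and M phases, all tested, 34 fell, with a median change of -2.07, and of 34 S phase genes 33 were tested and 30 fell, with a median of -1.90. The corresponding counts after median-ratio scaling were 32 and 23, and no member of either list rose. In bulk libraries fewer dividing cells and less RNA of these genes per cell cannot be told apart. Top2a, the topoisomerase that untangles replicated DNA, fell from 31.9, 20.6 and 22.7 to 1.78, 2.08 and 3.22 (change -2.96, SE 0.29, adjusted p = 4.98e-05). Cdk1, the kinase that starts mitosis, fell from 14.6, 15.1 and 14.4 to 1.88, 0.828 and 0.745 (change -2.91, SE 0.25, adjusted p = 2.18e-05). Every transplant library lay below every teratoma library for both genes. Mki67, the proliferation antigen, changed by -2.70 and Birc5, a subunit of the chromosomal passenger complex, by -2.91. Among S phase genes, Mcm6, a subunit of the replicative helicase, fell from 25.3, 15.3 and 22.3 to 2.05, 1.93 and 2.47 (change -2.78, SE 0.27, adjusted p = 4.63e-05). The helicase subunits Mcm5 and Mcm2 changed by -3.07 and -2.74, and Uhrf1, which couples DNA methylation to replication, by -2.70. Of 55 replication-dependent histone genes tested, 41 fell and none rose, with a median of -2.47. Histone copies can share reads and are uncertain singly.

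Many G2 and M phase promoters carry CCAAT boxes, which the factor NF-Y binds. The letters CCAAT, on either strand and with no other motif searched in the same windows, were present within the 250 bases before the RefSeq start in 26 of 32 promoter windows of these genes (81.2%, from 29 of the 34 genes matched). They were present in 18 of 33 S phase windows (54.5%) and in 33.8% of 32851 windows of all genes. The stretches below show the 130 bases before the start of Cdk1 and Top2a, and of Ccnb2, a mitotic cyclin chosen after its values were seen, which fell from 13.4, 7.33 and 12.2 to 1.13, 1.98 and 3.43 FPKM (change -1.94, SE 0.38, adjusted p = 0.00402). They are shown because the 3 genes fell together and each holds more than 1 box. Capitals mark CCAAT or its reverse complement ATTGG, and the sequences are from RefSeq on GRCm38.p6, 5′ to 3′ on the strand of the gene. Cdk1 is taken from chr10:69352913-69353042, minus strand, Top2a from chr11:99024190-99024319, minus strand and Ccnb2 from chr9:70421555-70421684, minus strand.
Cdk1: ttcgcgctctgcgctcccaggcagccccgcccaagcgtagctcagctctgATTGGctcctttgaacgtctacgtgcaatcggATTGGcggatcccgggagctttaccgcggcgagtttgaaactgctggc
Top2a: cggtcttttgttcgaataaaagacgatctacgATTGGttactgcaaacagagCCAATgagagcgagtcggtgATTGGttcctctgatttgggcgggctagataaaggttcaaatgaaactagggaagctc
Ccnb2: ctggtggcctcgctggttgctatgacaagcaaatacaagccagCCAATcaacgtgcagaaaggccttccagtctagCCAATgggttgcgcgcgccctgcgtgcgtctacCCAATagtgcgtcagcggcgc
Cdk1 has 2 boxes in this stretch, Top2a 3 and Ccnb2 3. A match describes the letters of the window and is not evidence of binding in these cells.

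The inhibitors of cyclin-dependent kinases went in opposite directions. Of 7 tested, 2 rose, 1 fell and 4 were not called (28.6% higher and 14.3% lower, beside 4.18% and 18.5% of all genes). Cdkn2a, the locus of the p16Ink4a and p19Arf proteins (mm10 chromosome 4 from 89274471 to 89294653), stood at 0, 3.46 and 2.08 in teratoma and 34.6, 28.7 and 21.4 in transplant (change 3.59, SE 0.44, adjusted p = 0.000232). It was listed at 0 in all 6 embryo and adult libraries as well as in teratoma replicate 1. One symbol stands for both transcripts of the locus, which the table does not separate. Its neighbour Cdkn2b, which encodes p15Ink4b, went from 4.34, 5.97 and 3.23 to 14.4, 14.9 and 7.04 (change 1.21, SE 0.31, adjusted p = 0.0153). That call was lost with a pseudocount of 0.1 (adjusted p = 0.135) and without teratoma replicate 3 (0.0528), transplant replicate 1 (0.0662) or transplant replicate 2 (0.0605). Cdkn1c, which encodes p57Kip2 and is imprinted, fell from 316, 244 and 265 to 26.9, 33.3 and 19.9 (change -3.34, SE 0.30, adjusted p = 3.06e-05). Cdkn1a, which encodes p21Cip1, was at 83.4, 95.2 and 76.7 before and 40.9, 52.6 and 58.5 after, without overlap and just short of a call (adjusted p = 0.0504). It was called under several alternatives, including the fit of the 6 libraries alone (adjusted p = 0.023).

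**Figure D2:**
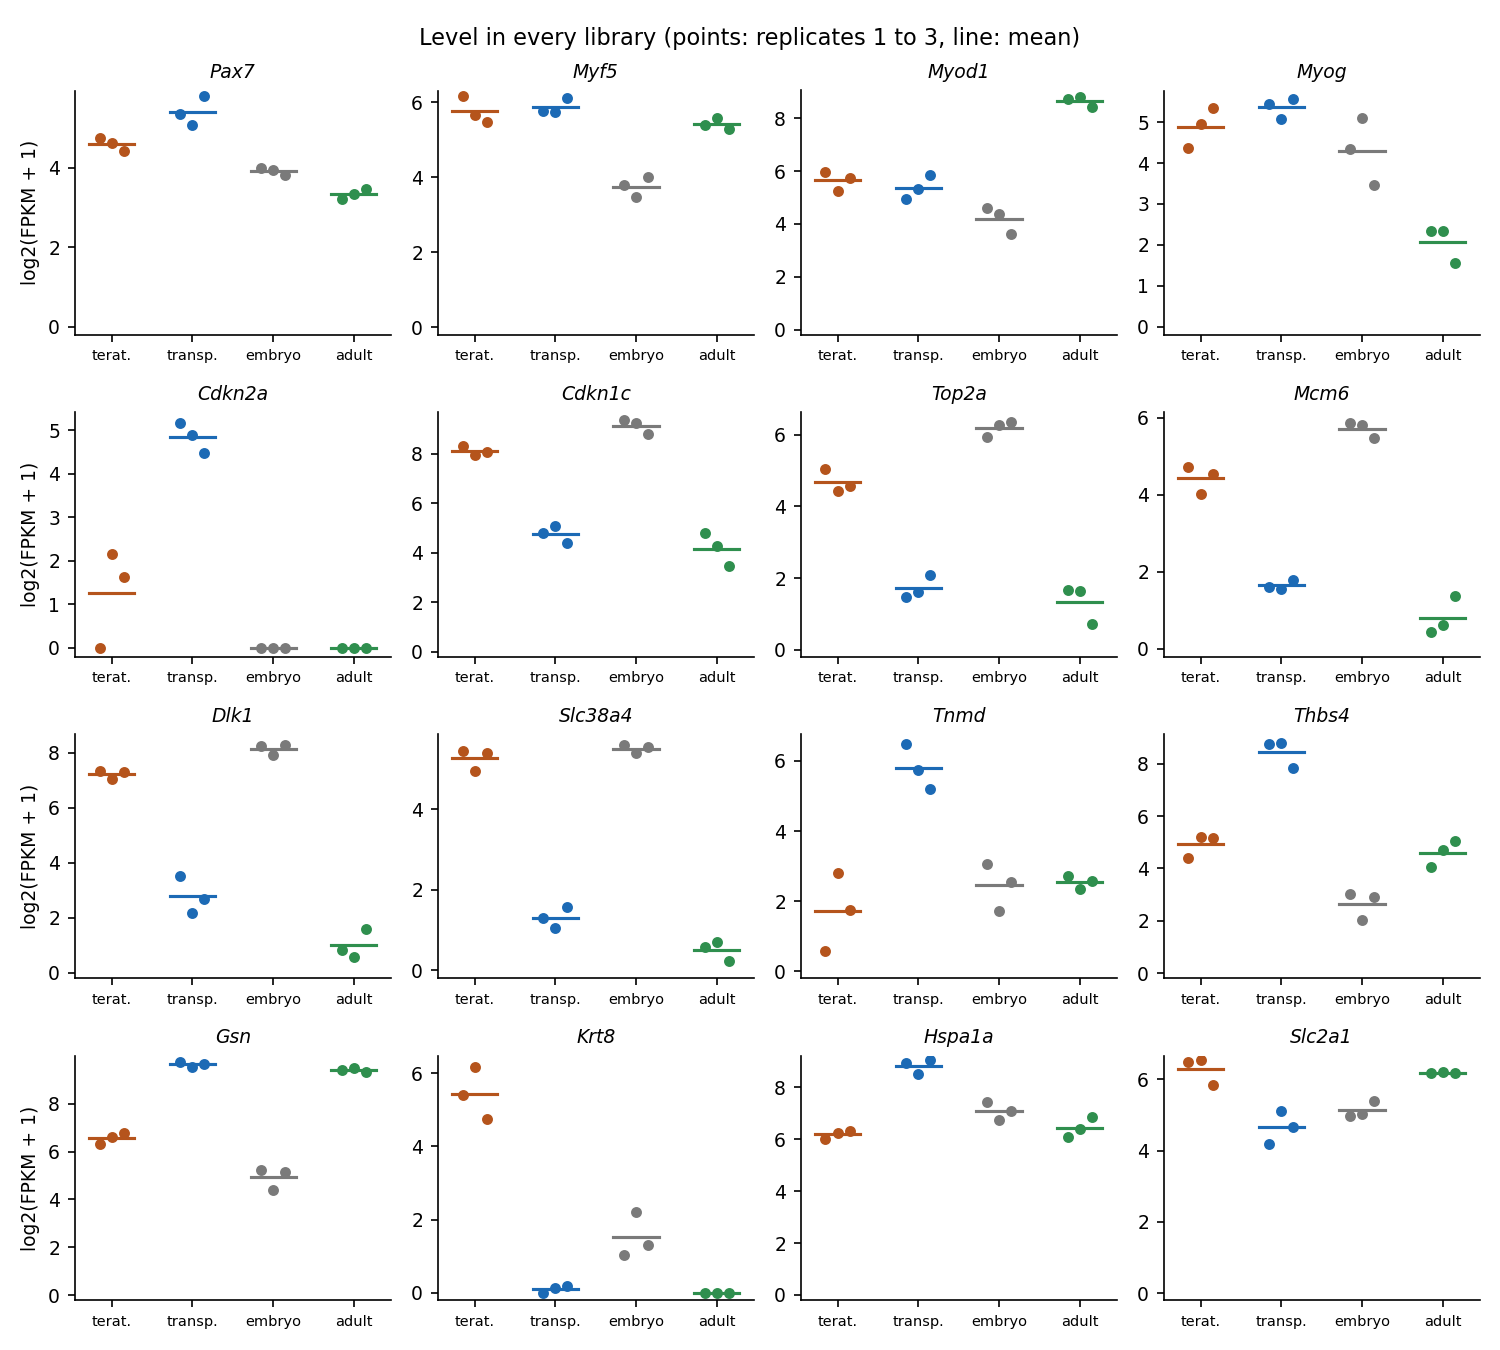
The level of 16 genes in every library, as log2(FPKM + 1), by group. Points are replicates 1 to 3 and lines are group means. Pax7, Cdkn2a, Tnmd, Thbs4, Gsn and Hspa1a are higher in all 3 transplant libraries than in all 3 teratoma libraries, while Cdkn1c, Top2a, Mcm6, Dlk1, Slc38a4, Krt8 and Slc2a1 are lower, and Myf5, Myod1 and Myog overlap.

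Imprinted genes, expressed from 1 parental copy and often active in fetal growth, were mostly lower. Of 34 listed, 32 were tested, 20 fell and 1 rose, with a median of -0.96 (16 fell and 1 rose after median-ratio scaling). Dlk1, a fetal regulator of growth and differentiation, fell from 159.9, 132 and 154 to 10.5, 3.49 and 5.44 (change -4.43, SE 0.32, adjusted p = 1.09e-05). Slc38a4, an amino acid transporter, fell from 43.1, 30 and 41.3 to 1.48, 1.06 and 1.99 (change -3.96, SE 0.22, adjusted p = 8.35e-07). H19, the noncoding RNA beside Igf2, fell from 15, 14.8 and 14.2 to 0.986, 1.09 and 1.44 (change -2.86, SE 0.14, adjusted p = 5.8e-07). All 3 genes separated the groups completely, and H19 was already far below the embryo libraries, which held 1466 ± 168 FPKM. Igf2, the fetal growth factor of the same locus, was named after its values were seen. It fell from 1786, 1606 and 1662 to 749, 735 and 1110.3 (change -0.99, SE 0.19, adjusted p = 0.00335), a level still above the 45.4 ± 7.02 FPKM of adult cells. Dcn, the matrix proteoglycan decorin, was the member that rose, from 182 ± 23.7 to 587 ± 120.2. It is also among the interstitial matrix genes below. Which parental copy was expressed in these cells was not tested for any gene.

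Oncofetal genes, which are active in embryos and many tumours and low in most adult tissues, were also lower. Of 10 listed, 6 were tested and 5 fell, with a median of -2.15. Hmga1 and Hmga2, chromatin proteins of growing cells, went from 76, 19.5 and 25.6 to 4.82, 7.34 and 7.55 and from 7.38, 7.10 and 7.16 to 0.669, 2.21 and 0.230. Igf2bp1 and Igf2bp2, which bind and stabilise fetal mRNAs, changed by -2.17 and -2.18. Every transplant value of these 4 genes was below every teratoma value. Hmga1 was not low in the adult cells here, at 66.2 ± 16.4 FPKM beside 32.4 ± 12.1 in embryo cells. That native difference was not called (adjusted p = 0.0605), while the other 5 genes tested were lower in adult than in embryo cells. Of 14 pluripotency genes 3 reached the filter and 2 fell, and 8, among them Pou5f1, Zfp42 and Esrrb, were listed at 0 in all transplant libraries. These 8 were below the filter and already low in teratoma. Klf4, which was not called, held 68.2, 111 and 111 of the 74.3, 117 and 115 FPKM of the whole list there. The zeros of these 8 thus say little about a change.

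Differentiation genes changed less evenly. Of 39 sarcomere genes tested, 12 fell and 5 rose (30.8% and 12.8%, beside 18.5% and 4.18% of all genes). Their median was -0.64. The number that rose dropped to 1 or 2 without teratoma replicate 1 or 3 or transplant replicate 2 or 3. Actc1, the cardiac actin of fetal muscle, fell from 57.8, 48.2 and 78.6 to 11.9, 13.7 and 21.3 (change -1.93, SE 0.31, adjusted p = 0.00121). Myh8, the perinatal myosin heavy chain, fell from 5.53, 12.5 and 5.76 to 0.912, 0.518 and 1.55 (change -2.11, SE 0.37, adjusted p = 0.00214), and Tpm1, a tropomyosin, changed by -1.74 (SE 0.21, adjusted p = 0.000232). For Actc1, Myh8 and Tpm1 every transplant library was below every teratoma library. Des and Acta1 of the same list were not called. Des was at 71.1 ± 8.73 before and 93.2 ± 18.1 after, with every transplant library above every teratoma library. Acta1 was at 40.2 ± 19.3 and 44.4 ± 3.38, with overlap. Of 29 commitment and fusion genes tested, 2 rose and 3 fell (6.9% and 10.3%, beside 4.18% and 18.5% of all genes). Of 12 genes of the neuromuscular junction tested, 2 rose (16.7%, beside 4.18% of all genes) and none fell. These were the acetylcholine receptor subunits Chrna1, from 4.31, 6.60 and 6.72 to 12.7, 22.1 and 14.3 (change 1.32, SE 0.27, adjusted p = 0.00517), and Chrnb1, from 29.7, 23.9 and 20.2 to 41.8, 36.3 and 53.6 (change 0.81, SE 0.20, adjusted p = 0.0128). The Chrnb1 call was lost without transplant replicate 3 (adjusted p = 0.0539).

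Of 38 tested genes known from quiescent satellite cells, 11 rose and 2 fell (28.9% and 5.26%, beside 4.18% and 18.5% of all genes). Their median was 0.14 against -0.28 for all genes. Without transplant replicate 1, or without transplant replicate 3, 7 rose. Chrdl2, a secreted BMP antagonist, rose from 2.27, 2.73 and 1.54 to 11.7, 11.4 and 30.9 (change 2.45, SE 0.34, adjusted p = 0.000557), with transplant replicate 3 the highest. Adult cells held 87.7 ± 21.4 FPKM. Col5a3, a type V collagen chain, rose from 12.9, 17.1 and 21.3 to 75.1, 70.1 and 78.9 (change 2.09, SE 0.24, adjusted p = 0.000148). Gpx3, the secreted glutathione peroxidase, changed by 1.72 (SE 0.36, adjusted p = 0.00594), and Gas1, which slows the cell cycle in culture, by 1.62 (SE 0.17, adjusted p = 9.72e-05). Gas1 is a case where the native stages run the other way, at 52.3 ± 6.36 FPKM in embryo and 12 ± 1.34 in adult cells. Rgs5, an inhibitor of G-protein signals that is also a pericyte marker, was among the genes that fell, from 26.8, 20 and 30.9 to 6.55, 5.73 and 3.06.

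Genes of tendon rose. Of 12 tendon markers, all tested, 8 rose and none fell, with a median of 2.25. Their summed level went from 925 to 1046 FPKM in the teratoma libraries to 1659 to 1919 in the transplant libraries. Most of these sums was Egr1, also an immediate early gene, which was not called. It was at 762, 821 and 760 before and 1083, 940 and 1162 after. The sums therefore say little about the other members. Tnmd, the tendon membrane protein tenomodulin (mm10 chromosome X from 133850980 to 133865577), rose from 0.497, 6.02 and 2.36 to 87.8, 52.8 and 35.9 (change 4.10, SE 0.51, adjusted p = 0.000275), the largest rise once predicted and small RNA genes were left aside. Thbs4, a thrombospondin of tendon and muscle attachment sites, rose from 20.1, 36.2 and 35.3 to 426, 443 and 229 (change 3.53, SE 0.36, adjusted p = 8.3e-05). The lowest transplant library exceeded the highest teratoma library for both. The corneal and tendon proteoglycan Kera changed by 3.11 (SE 0.32, adjusted p = 8.99e-05) and the cartilage intermediate layer protein Cilp2 by 2.89 (SE 0.30, adjusted p = 8.75e-05). Scx, the transcription factor that defines tendon progenitors and was named after its values were seen, was at 5.50, 4.74 and 5.52 before and 20.9, 21.5 and 11.4 after. It did not overlap and was not called (adjusted p = 0.123), and the embryo libraries, which share its estimate of spread, ran from 0.908 to 22.4 FPKM. In a fit of the 6 libraries alone its adjusted p was 0.00823. Adult satellite cells held 4.87 ± 0.727 FPKM of Tnmd and 24.2 ± 8.35 of Thbs4, each below all 3 transplant libraries.

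Of 20 fibroblast markers, all tested, 12 rose and none fell, with a median of 1.30 and summed levels of 900 to 1121 FPKM before and 2537 to 3174 after. Gsn, the actin-severing protein gelsolin, rose from 78.1, 95.5 and 107 to 846, 740.2 and 807 (change 3.09, SE 0.21, adjusted p = 5.79e-06). Adult cells held 675 ± 35 FPKM. Smoc2, a matrix-associated calcium binder, rose from 13.2, 16.1 and 20 to 133, 81.9 and 113 (change 2.65, SE 0.22, adjusted p = 1.93e-05). Pi16 and Mfap5, which mark a widespread adventitial fibroblast state, changed by 2.43 (SE 0.38, adjusted p = 0.00102) and 2.45 (SE 0.48, adjusted p = 0.00388). No tendon or fibroblast marker was at 0 in all transplant libraries, and adult cells had summed fibroblast levels of 1289 to 1471 and tendon levels of 479 to 536 FPKM. Egr1 made up most of the adult tendon sum, at 409 ± 26 FPKM. Whether tendon or fibroblast cells passed the sort, and what part they have in the changes of matrix genes, was not tested.

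Interstitial matrix genes were mixed. Of 30 tested, 10 rose, 4 fell and 16 were not called (33.3% higher and 13.3% lower, beside 4.18% and 18.5% of all genes). Their median was 0.58, and after median-ratio scaling 16 rose and 2 fell. Without teratoma replicate 1, transplant replicate 1 or transplant replicate 2, 4 rose. Bgn, the proteoglycan biglycan, rose from 422, 655 and 535 to 1526, 1569.7 and 1062 (change 1.37, SE 0.19, adjusted p = 0.000614) and Fn1, fibronectin, from 155, 270.5 and 222 to 529, 557 and 311 (change 1.10, SE 0.24, adjusted p = 0.00766). Fbn2, the fetal fibrillin, fell from 41.6, 39.4 and 44.8 to 14.9, 10.1 and 5.69 (change -2.02, SE 0.25, adjusted p = 0.000276), with transplant replicate 3 the lowest. Of 27 basement membrane genes and receptors, 4 rose and 10 fell (14.8% and 37%, beside 4.18% and 18.5% of all genes). Itga6, the laminin receptor subunit α6-integrin, fell from 19.4, 21.1 and 14.6 to 1.39, 2.50 and 2.41 (change -2.65, SE 0.21, adjusted p = 1.86e-05), whereas Itga7 above did not pass the test. The collagen chain Col4a6 changed by -2.17 and the laminin chain Lama5 by -1.75. Of 20 remodelling enzymes and inhibitors, 4 rose and 4 fell (20% each, beside 4.18% and 18.5% of all genes). Among those that rose were the gelatinase Mmp2 (87.1 ± 6.95 to 239.6 ± 70.2) and the aggrecanase Adamts5 (5.79 ± 1.13 to 18.1 ± 1.14). Other genes with large increases were also secreted matrix or growth factor binding proteins. They were Fbln7, a fibulin (3.57), the small proteoglycans Epyc (3.42) and Prelp (3.24), Igfbp6, which binds IGF2 (3.38), and Itgbl1, an integrin-like secreted protein (2.90).

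**Figure D3:**
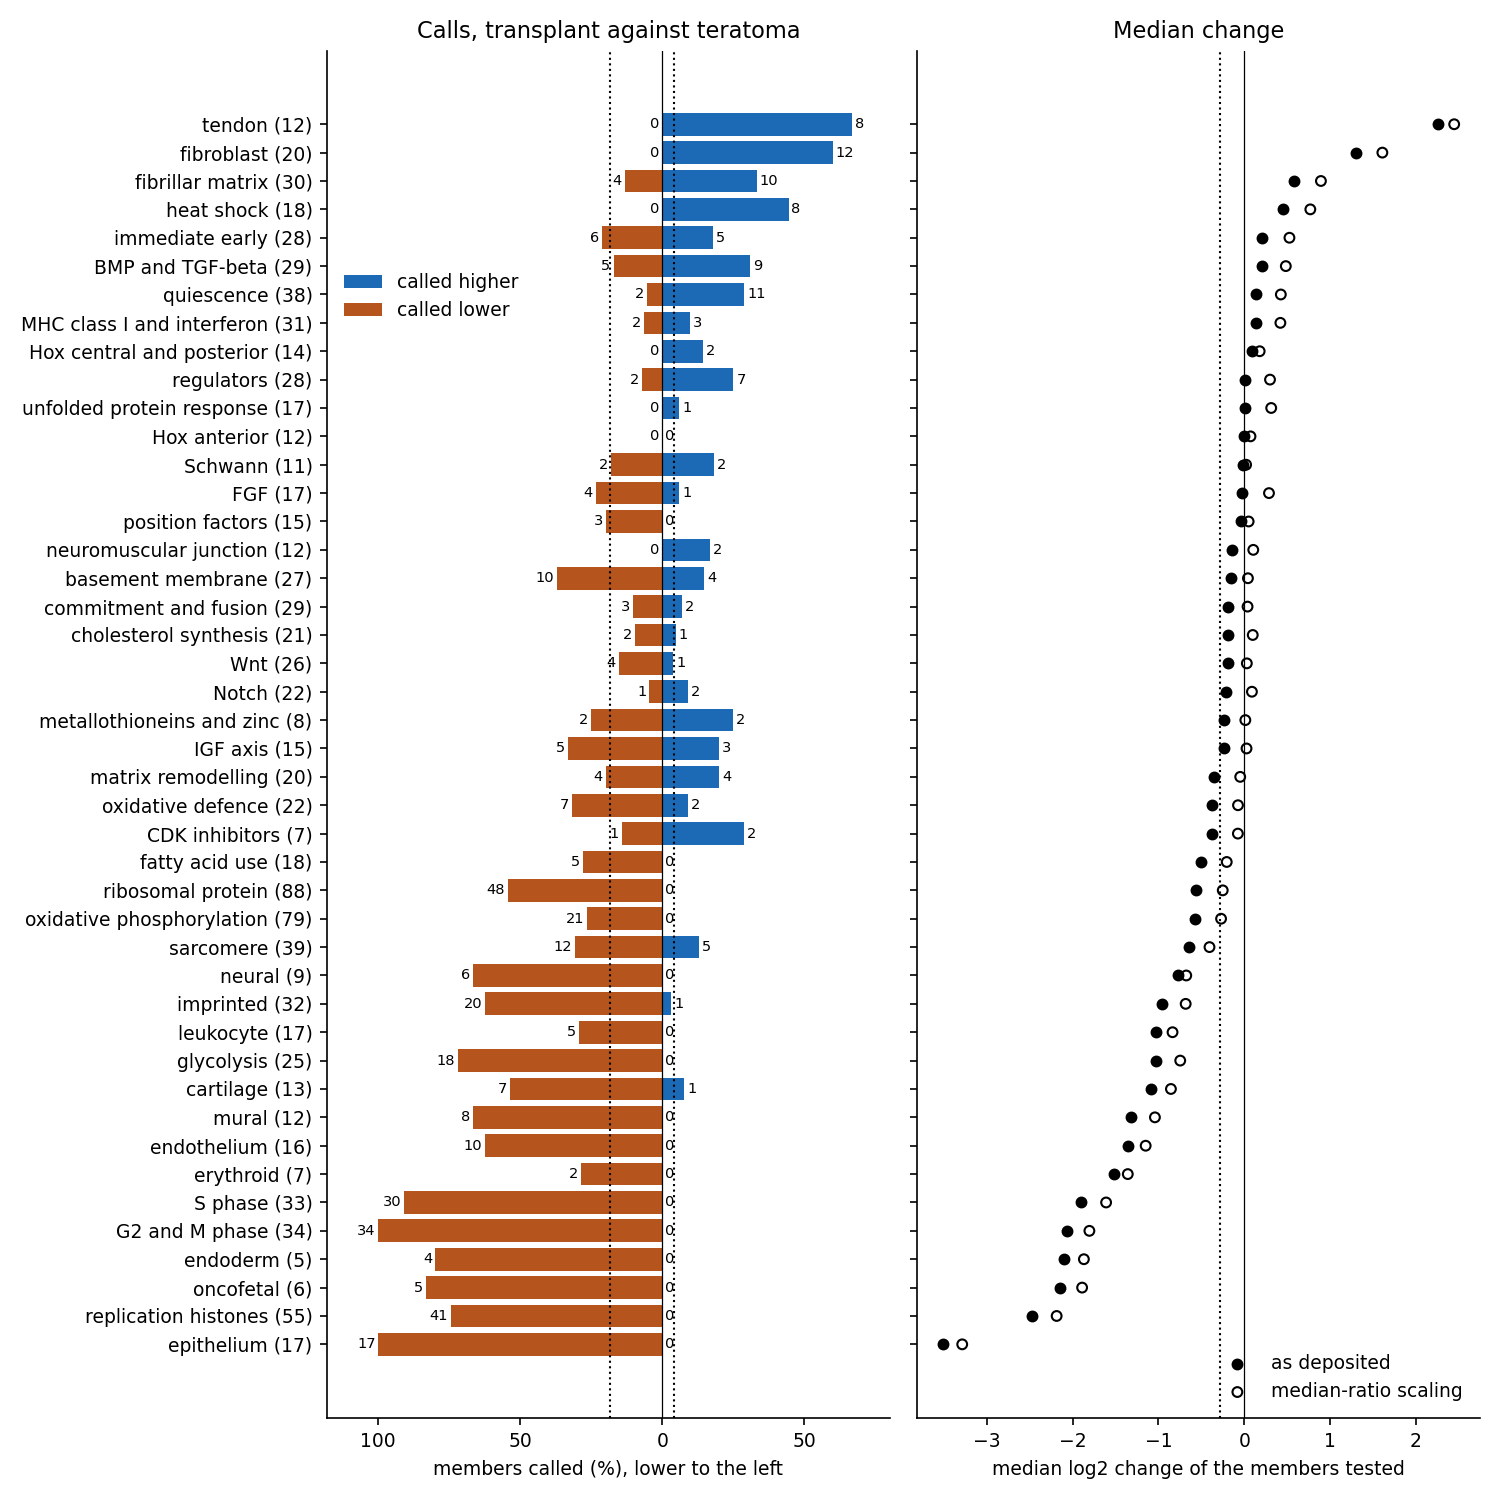
Gene lists with at least 5 members tested (number tested in parentheses), ordered by median change. The left panel gives the percent of members called higher (blue, to the right) and lower (orange, to the left) with their number at the bar end, and dotted lines at 4.18% and 18.5% for all genes. The right panel gives the median log2 change in the deposited values (filled) and after median-ratio scaling (open), with a dotted line at -0.28. Tendon is at the top with 8 of 12 higher and epithelium at the bottom with 17 of 17 lower.

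Transcripts of epithelium, gut and glia were found in the teratoma libraries and were lower after transplantation. A gene that reached the filter only through the teratoma libraries had to differ, so these counts describe the libraries and support nothing further. Of 20 epithelial markers 17 were tested and 17 fell (median -3.51), from summed levels of 175 to 587 FPKM to 3.66 to 17.5. Krt18 and Krt8, the keratin pair of simple epithelia, went from 36.1, 71.5 and 28.4 to 0.0583, 0 and 0 and from 41.1, 70.8 and 25.6 to 0, 0.0963 and 0.147. Krt19, Cldn4, a tight junction protein, and Sprr1a, a protein of the cornified envelope, changed by -5.14, -5.52 and -4.47. Epcam, the pan-epithelial adhesion molecule, was listed at 0 in all 3 transplant libraries. Ttr, the thyroid hormone carrier made by yolk sac, liver and choroid plexus, was at 216, 204 and 91 in teratoma, and Reg3g, an antibacterial lectin of the gut, at 203, 159 and 26.5. Both were listed at 0 in all transplant libraries, as were Cym, the stomach enzyme chymosin, and Bpifa1, an airway secretion, which had been at 61.1, 23.2 and 17.4 and 11.4, 55.1 and 18.1. Gfap, the astrocyte filament, went from 47.4, 56.9 and 26.6 to 0.0923, 0.0481 and 0.190. Teratoma replicate 3 was the lowest of the teratoma libraries for Krt18, Krt8, Krt19, Cldn4, Ttr and Reg3g.

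Among markers of vessel, blood, cartilage and nerve cells, decreases outnumbered increases in every list but that of Schwann cells. As above, a marker that reached the filter only through the teratoma libraries had to differ, so these counts describe the libraries and support nothing further. Of 16 endothelial markers, 10 fell and none rose, from summed levels of 111 to 139 FPKM to 72.1 to 107. Cdh5, the endothelial cadherin, went from 21, 17.8 and 17.3 to 2.87, 2.85 and 2.89 and Cldn5, the endothelial tight junction protein, from 7.23, 7.34 and 18.6 to 0.229, 0 and 0. Other members did not fall. Ramp2 was at 23.9, 29.9 and 40.2 before and 67.9, 32.5 and 72.3 after, and Eng at 18.9 ± 6.71 and 19.5 ± 2.72. Neither was called. No endothelial marker was at 0 in all transplant libraries. Of 12 mural cell markers tested, 8 fell, among them Abcc9, a potassium channel subunit, and the adhesion molecule Mcam (-2.49 and -2.31). Notch3 and Des of the same list were not called, with every transplant library above every teratoma library (changes 0.31 and 0.38). Of 17 leukocyte markers tested, 5 fell (29.4%, beside 18.5% of all genes) and 12 were not called. Their sums were 95.9 to 271 FPKM before and 38.4 to 76.4 after. Only 1 marker fell without teratoma replicate 3 or without transplant replicate 3. S100a8, a neutrophil protein, was at 2.35, 9.08 and 10.8 in teratoma and listed at 0 in all transplant, embryo and adult libraries. It thus reached the filter through the teratoma libraries alone. Of 13 cartilage markers tested, 7 fell and 1 rose, and Col2a1, the collagen of cartilage, went from 30.1, 14.2 and 38.6 to 0.140, 0.400 and 0.473. Col9a3 changed by -2.78. Of 9 neural markers tested, 6 fell, with sums of 67.9 to 115 before and 11.4 to 16.3 FPKM after. Of 11 Schwann cell markers, 2 rose and 2 fell (18.2% each, beside 4.18% and 18.5% of all genes). Their sums were 62.5 to 78.6 before and 90.1 to 103 FPKM after. Most of each sum was Pmp22, which rose from 40.2, 52.6 and 54.9 to 93.4, 72 and 87.6. Mitf also rose (1.13), while Erbb3 and Ngfr fell (-2.23 and -1.46). Fabp7 of the neural list, a fatty acid binding protein of immature glia, changed by -4.16. The part of such cells in the other decreases was not tested.

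**Figure D4:**
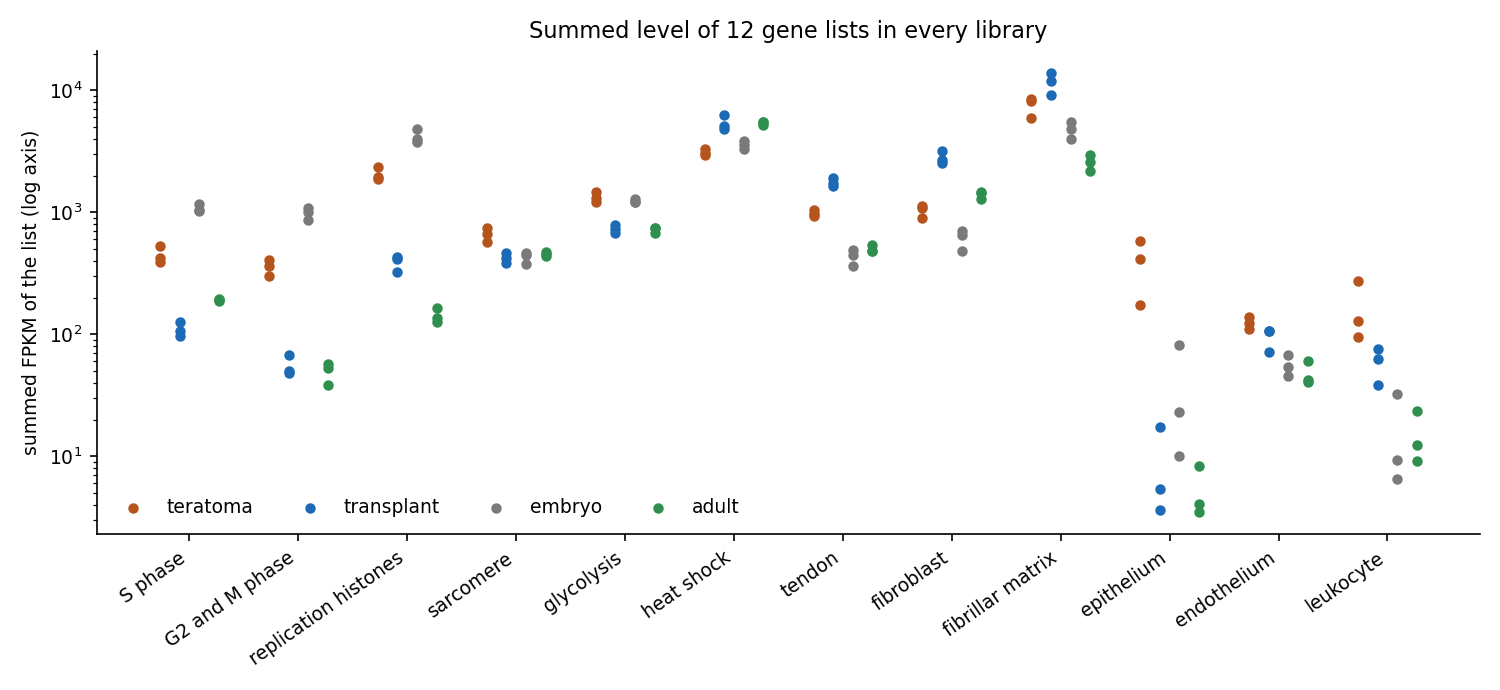
Summed FPKM of 12 gene lists in every library, on a log axis, with 3 points for each group. The S phase, G2 and M phase, histone, glycolysis and epithelium sums are lower in all 3 transplant libraries than in all 3 teratoma libraries. So are the sarcomere, endothelium and leukocyte sums. The tendon, fibroblast, fibrillar matrix and heat shock sums are higher.

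Signalling genes changed member by member. Of 22 Notch genes tested, 2 rose and 1 fell (9.09% and 4.55%, beside 4.18% and 18.5% of all genes). The rise of the target Hes1, from 29.9, 31.6 and 15.9 to 56.9, 58.4 and 53.1 (change 1.15, SE 0.26, adjusted p = 0.00779), came beside that of Heyl. Of 26 Wnt genes tested, 1 rose and 4 fell (3.85% and 15.4%, close to the 4.18% and 18.5% of all genes). The secreted inhibitor Wif1 went from 11.5, 10.1 and 6.47 to 0, 0.241 and 0.119 (change -3.18, SE 0.37, adjusted p = 0.000193), the target Axin2 changed by -1.05 (SE 0.23, adjusted p = 0.00798), and Sfrp4, another secreted inhibitor, rose from 1.95, 2.03 and 2.47 to 16.9, 12.5 and 10.4 (change 2.16, SE 0.22, adjusted p = 8.61e-05). Each of these separated the groups. Of 29 BMP and TGF-beta genes tested, 9 rose and 5 fell (31% and 17.2%, beside 4.18% and 18.5% of all genes). Their median was 0.20. Ctgf, a matrix protein induced by TGF-beta and YAP, rose from 66.6, 74.6 and 56.4 to 354, 499 and 311 (change 2.52, SE 0.26, adjusted p = 8.92e-05). Mstn, the inhibitor of muscle growth myostatin, rose from 0.826, 0.705 and 0.197 to 7.22, 4.28 and 5.69 (change 2.09, SE 0.43, adjusted p = 0.0053). The ligand Bmp7 and the BMP antagonist Nog fell, with changes of -1.87 and -2.60, and Bmp7 was listed at 0 in all transplant libraries. Of 15 genes of the IGF axis tested, 3 rose and 5 fell (20% and 33.3%, beside 4.18% and 18.5% of all genes). Igfbp2, a fetal binding protein, went from 32.7, 61.2 and 29.2 to 8.65, 8.53 and 7.12 (change -2.14, SE 0.26, adjusted p = 0.000256), and Igf1, the growth factor of postnatal muscle, from 49.3, 39.2 and 38.2 to 23.2, 18.2 and 16.5 (change -1.09, SE 0.25, adjusted p = 0.00839). Of 17 FGF genes tested, 1 rose and 4 fell (5.88% and 23.5%, also close to all genes). The receptor Fgfr2 was among those that fell (-2.01).

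Several heat shock genes rose. Of 18 tested, 8 rose and none fell, with a median of 0.46 (13 and none after median-ratio scaling). Hspa1a, an inducible HSP70 (mm10 chromosome 17 from 34969190 to 34972156), rose from 63.1, 74.9 and 79.5 to 483, 360.2 and 533 (change 2.63, SE 0.23, adjusted p = 2.97e-05). The near-identical Hspa1b, which can share its reads, changed by 2.66. Hspb1, the small chaperone HSP27, rose from 131, 215 and 168 to 684, 622 and 1013 (change 2.16, SE 0.28, adjusted p = 0.000342), and Dnajb1, the partner of HSP70, changed by 1.75 (SE 0.20, adjusted p = 0.000167). In all 4 genes the groups did not overlap, and transplant replicate 2 was the lowest and transplant replicate 3 the highest of the transplant libraries. The factor HSF1 binds repeats of GAA in alternating orientation. The letters GAANNTTC, which read alike on both strands, were in 6 of 19 heat shock windows of 250 bases (31.6%, from 13 of 18 genes matched) and in 6.69% of 32851 windows of all genes. The 130 bases before the RefSeq start of Hspa1a (chr17:34972157-34972286, minus strand) and Hspb1 (chr5:135887789-135887918, plus strand) on GRCm38.p6 show these letters in capitals, since both genes rose and hold them there.
Hspa1a: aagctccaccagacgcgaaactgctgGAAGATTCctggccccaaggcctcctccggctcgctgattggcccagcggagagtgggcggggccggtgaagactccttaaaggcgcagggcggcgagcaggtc
Hspb1: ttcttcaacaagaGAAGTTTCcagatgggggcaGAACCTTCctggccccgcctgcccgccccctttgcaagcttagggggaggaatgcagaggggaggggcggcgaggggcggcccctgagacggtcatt
Hspa1a has 1 match in this stretch and Hspb1 has 2. Cells of both groups were released by enzymes before the sort, from a tumour in one case and from muscle in the other, so an effect of the tissue digested and one of transplantation cannot be told apart.

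Of 28 immediate early genes, 5 rose and 6 fell (17.9% and 21.4%, beside 4.18% and 18.5% of all genes). After median-ratio scaling 10 rose and 2 fell. Fos, the transcription factor first induced by many stimuli, rose from 297, 425 and 435 to 943, 763 and 913 (change 1.19, SE 0.18, adjusted p = 0.000987), and Socs3, the feedback inhibitor of cytokine signals, from 57.9, 98.5 and 94.7 to 259, 202 and 257 (change 1.53, SE 0.20, adjusted p = 0.000354). The number that fell dropped to 2 without teratoma replicate 1 or 2, and to 1 without transplant replicate 1. Of 8 metallothionein and zinc transport genes, 2 rose and 2 fell (25% each, beside 4.18% and 18.5% of all genes). Mt2 rose from 244, 387 and 297 to 797, 709 and 862 (change 1.37, SE 0.27, adjusted p = 0.00433) and the zinc importer Slc39a14 from 9.37, 13.9 and 10.1 to 19.4, 33.7 and 28.9 (change 1.21, SE 0.22, adjusted p = 0.00249). Mt1 was at 292, 345 and 324 before and 1015, 936 and 1096 after without overlap, but was not called (adjusted p = 0.0763), and in a fit of the 6 libraries alone its adjusted p was 0.000936. Mt3, the metallothionein of brain, fell from 23.7, 26.6 and 7.88 to 0.487, 0 and 3.01. Of 31 MHC class I and interferon genes, 3 rose and 2 fell (9.68% and 6.45%, beside 4.18% and 18.5% of all genes).

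Glycolysis genes were mostly lower, and those of oxidative phosphorylation mostly not called. Of 25 glycolysis genes tested, 18 fell and none rose, with a median of -1.03, and after median-ratio scaling 9 fell (36.0%, beside 9.51% of all genes). Slc2a1, the glucose transporter GLUT1, fell from 88.5, 92.4 and 56.2 to 17.3, 33.5 and 24.3 (change -1.63, SE 0.24, adjusted p = 0.000728). Slc16a3, the lactate exporter MCT4, changed by -1.98 (SE 0.31, adjusted p = 0.0011), and Aldoc, the brain aldolase, went from 8.18, 6.62 and 6.41 to a listing of 0 in all transplant libraries. Of 79 oxidative phosphorylation genes, 21 fell (26.6%, beside 18.5% of all genes). The share was 16.5% beside 16.7% without teratoma replicate 3 (13 genes), 12.7% beside 11.5% without transplant replicate 1 (10 genes), and 8.86% beside 9.51% after median-ratio scaling (7 genes), so under these settings it was close to that of all genes. Of 88 ribosomal protein genes, 48 fell with the deposited values (54.5%, beside 18.5% of all genes). After median-ratio scaling 5 fell (5.68%, beside 9.51% of all genes). With the deposited values, 23 fell without teratoma replicate 1 (26.1% beside 10.8%) and 27 without teratoma replicate 2 (30.7% beside 13.9%). Without teratoma replicate 3, 38 fell (43.2% beside 16.7%), and without transplant replicate 1, 19 fell (21.6% beside 11.5%). Without transplant replicate 2, 24 fell (27.3%), and without transplant replicate 3, 33 fell (37.5% beside 13.3%). The share thus shrank but stayed above that of all genes whichever of these libraries was left out. Of 22 oxidative defence genes, 2 rose and 7 fell (9.09% and 31.8%, beside 4.18% and 18.5% of all genes). Among those that fell were the glutathione transferase Gsta4 (-2.81) and the cystine transporter Slc7a11 (-2.19).

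Few genes of body position were called. None of 12 anterior Hox genes tested was called (22.6% of all genes were), and their median change was -0.01. All 12 were lower in adult than in embryo cells. The 15 listed summed to 9.90 to 13.1 FPKM in teratoma, 6.85 to 15.8 in transplant, 50 to 82.9 in embryo and 4.10 to 4.88 in adult libraries. At such low levels a lack of calls says little. A gene that reached the filter only through the embryo libraries had to be lower in adult cells. Of 14 central and posterior Hox genes tested, 2 rose (14.3%, beside 4.18% of all genes) and none fell. Of 15 other factors tied to body position, 3 fell (20%, beside 18.5% of all genes). Tbx1, a regulator of head and pharyngeal muscle, fell from 13.8, 9.84 and 11.1 to 2.06, 1.35 and 2.42 (change -2.10, SE 0.31, adjusted p = 0.000727), and Tcf21, known from the same region, from 8.76, 13.4 and 10.6 to 3.41, 4.81 and 3.41 (change -1.28, SE 0.23, adjusted p = 0.00246). The Tcf21 call was lost with a pseudocount of 0.1 (adjusted p = 0.0727). Tcf21 was at most 0.142 FPKM in any embryo or adult library.

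The change after transplantation was then set beside the native difference between adult and embryo cells, a comparison that shares no library with it. Adult cells had 2007 genes higher (15.8%) and 4692 lower (36.9%) than embryo cells. Of the 531 genes that rose after transplantation, 202 (38.0%) were also higher in adult cells, where they made up 10.1% of the higher genes, and 119 (22.4%) were lower there. Of the 2343 that fell, 1101 (47.0%) were also lower in adult cells, 23.5% of the lower genes there, and 382 (16.3%) were higher. Across the 12699 genes, which are not independent replicates, the 2 changes had a Pearson correlation of 0.25 and a Spearman correlation of 0.13. All groups share the sequencing method and the FPKM scale.

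Proliferation genes were lower in both comparisons. In the adult against embryo comparison, 33 of 33 S phase and 34 of 34 G2 and M phase genes were lower, and the difference of the 2 changes was called for 17 and 24 of them, each time with the smaller decrease after transplantation. For the other genes of both lists a different amount was not called. Over all genes that difference was called for 38.9% (21.7% higher and 17.2% lower). The S phase sums were 388 to 526 FPKM in teratoma, 97.3 to 125 in transplant, 1030 to 1161 in embryo and 187 to 193 in adult libraries. Those of G2 and M phase were 299 to 407, 48.4 to 67.9, 869 to 1079 and 38.2 to 57.2. The smaller decrease thus started from a lower level in teratoma than in embryo, and does not mean a higher S phase sum than in adult cells. For Dlk1 the change was -4.43 after transplantation and -7.15 between the native stages, and for Igf2 it was -0.99 and -4.81. For Gsn both changes were increases, 3.09 and 4.48. Of the 2874 genes called after transplantation, 1587 had changes that were called different from the native one and 1287 did not.

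Among the 5 genes with the largest positive difference between the 2 changes, 4 rose after transplantation and were lower in adult than in embryo cells. Fibin, a secreted factor of limb development, rose from 7.02, 9.18 and 10.6 to 48.5, 57.8 and 33.4 after transplantation and was at 23.6 ± 3.54 in embryo and 0.882 ± 0.477 in adult cells, a difference of changes of 5.97 (SE 0.36, adjusted p = 1.19e-06). Mstn had a difference of 5.80 (SE 0.61, adjusted p = 3.7e-05) and Fn1 of 4.82 (SE 0.34, adjusted p = 3.39e-06), with embryo and adult levels of 246 ± 23.9 and 17.7 ± 2.04 FPKM for Fn1. Osr1, a factor of embryonic connective tissue, rose from 1.90, 3.96 and 2.55 to 9.41, 11.4 and 8.75 and was at 24.7 ± 4.02 and 1.33 ± 0.508 in the native stages. Agtr2, an angiotensin receptor of fetal tissue, fell in both, from 30.1, 18.4 and 46.5 to 16, 7.0 and 11.4 and from 130.5 ± 19.8 in embryo cells to a listing of 0 in all adult libraries. Its call after transplantation was lost after median-ratio scaling (adjusted p = 0.0513).

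In the other direction stood Ttr, listed at 0 in all native libraries, and 4 genes that were higher in adult than in embryo cells and fell after transplantation. Procr, the receptor of protein C (mm10 chromosome 2 from 155751117 to 155755471), fell from 25.1, 16.6 and 20.1 to 1.48, 1.68 and 3.97, while embryo cells had 0.588 ± 0.355 and adult cells 153 ± 56.8 FPKM (difference -9.28, SE 0.48, adjusted p = 5.01e-07). Srxn1, which repairs oxidised peroxiredoxins, and Hmox1, the inducible heme oxygenase, fell from 102, 73.7 and 61.2 to 13.2, 33 and 37 and from 233, 195 and 250.5 to 65.8, 112 and 105. Adult cells had 295 ± 27 and 1154 ± 151 FPKM. The fall of Srxn1 was not called without teratoma replicate 1 (adjusted p = 0.071) or transplant replicate 1 (0.0595), or with a pseudocount of 0.1 (0.078). Cxcl5, a neutrophil chemokine, fell from 31, 23.7 and 20.3 to 0.618, 0.165 and 1.60, with 10.7 ± 3.39 FPKM in adult cells. Asb5, a muscle ubiquitin ligase adaptor named after its values were seen, rose from 11.8, 9.09 and 7.37 to 44.6, 84.7 and 80.2 and reached 652 ± 24.8 FPKM in adult cells, so that it moved the same way by a smaller amount, with a difference of changes of -6.56 (SE 0.33, adjusted p = 5.01e-07).

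**Figure D5:**
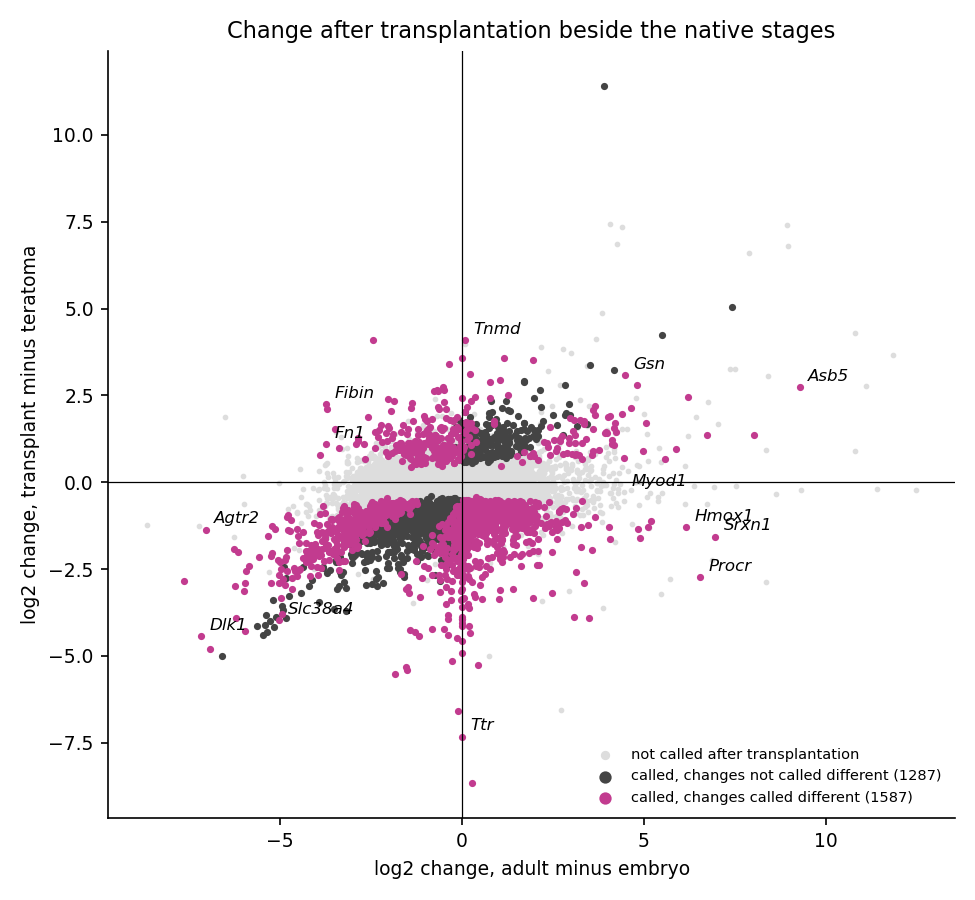
Each point is a gene, with its log2 change between adult and embryo cells on the horizontal axis and its log2 change between transplant and teratoma on the vertical axis. Grey genes were not called after transplantation, and the 2874 called genes are magenta where the 2 changes were called different (1587) and black where they were not (1287). Procr, Srxn1 and Hmox1 lie at the lower right, Fibin and Fn1 at the upper left, and Dlk1 and Slc38a4 at the lower left.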

How the data were processed

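Total RNA of sorted mouse cells was sequenced in 12 libraries, 3 in each of 4 groups, with a stranded total-RNA kit for low input, per the labels' protocols. Per the submitters' processing notes, the build was mm10 and the tools included Cufflinks 2.2.1.0, TopHat 0.7 (versions as written there), Partek and CASAVA 1.8.2, with no roles stated. The authors deposited FPKM by gene symbol, 1 column a library, in a single table. Strand handling is not stated in the labels or headers. Small RNA takes much of the FPKM sum with such kits, so the sum is no guide to the level of mRNA.

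Values of the 240 repeated symbols (462 extra entries of 23746) were summed, leaving 23284 symbols. Groups came from sample titles. Tests used limma 3.58.1 in R 4.3.3 on log2(FPKM + 1), for genes that reached 1 FPKM in 3 or more libraries, in 1 model of the 4 groups over all 12 libraries (8 residual degrees of freedom) with a mean-variance trend, adjusted by Benjamini-Hochberg over 12699 genes. The difference of the 2 changes is transplant minus teratoma less adult minus embryo. Lists are described by counts and medians without a test of the list. The fit was tested on simulated data.

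Named genes were the lineage and sort genes, the 10 largest increases and decreases among called genes without overlap and with 5 FPKM or more as the higher mean (histone, ribosomal protein, mitochondrial, small RNA and predicted genes left out), up to 4 called members of each list, and 5 genes in each direction by the difference of the 2 changes. The members and lists were chosen with earlier results of these data known. Alternatives were another pseudocount, 2 other filters, 3 other scalings, a fit of the 6 libraries, library weights, a replicate block, a minimum change, leaving out each library, and, chosen after seeing the data, isolated zeros as missing. Positions are from GENCODE on mm10, with 123 of 124 genes matched.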

Additional observations from a re-analysis of the deposited data

How the results depend on the processing

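Scaling moved the counts most. The counts, in this order, of genes higher in transplant than in teratoma, genes lower in transplant than in teratoma, genes higher in transplant and in adult (against embryo) and genes lower in transplant and in adult were 922, 1208, 411 and 513 after median-ratio scaling, and 1096, 1309, 441 and 591 after quantile normalization. With small and ribosomal RNA left out they were 834 higher and 1444 lower. A minimum change of 1 on the log2 scale left 335, 1288, 123 and 583. Leaving out 1 library at a time gave 334 to 647 higher and 1372 to 2653 lower genes, 147 to 223 and 718 to 1198 shared ones, and 4228 to 5151 genes whose 2 changes differ. The lowest counts came without teratoma replicate 1, except 4228, without transplant replicate 1. With the replicate number as a block, 453 genes were higher and 2013 lower, and no named gene's call changed, while the leukocyte markers that fell went from 5 to 3. Same-numbered libraries had correlations of deviations of -0.087, 0.0956 and -0.0674, and of the transplant libraries only replicate 2 correlated best with its own number, so the numbers were not taken to pair them.

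No gene that changed sign was called. After median-ratio scaling, quantile normalization and rescaling without small RNA, Itga7 was at 0.262, 0.171 and 0.183, Vcam1 at 0.229, 0.0876 and 0.149, and the value of Notch, median log2 change, was 0.0894, 0.0375 and 0.0117. Myod1 was at 0.0265 and Wnt, median log2 change, at 0.0302 with median ratios, and the latter at 0.123, Pax3 at 0.0593 and Hprt at 0.0442 with quantiles. Leaving out 1 library at a time moved Itga7 from -0.241 to 0.0866, Vcam1 from -0.276 to 0.141 and Myf5 from -0.0520 to 0.294. For pluripotency, median log2 change was -1.23 over 3 genes, 0 without a filter and 0.218 with a mean of at least 5 FPKM, since other members were then tested. In each case the cause was not tested. Absolute depth is unknown, so no detection limit is given.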

Other observations

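A few genes were listed at 0 in all 3 transplant libraries although every teratoma library had at least 5 FPKM. There were 24 of these, of which 12 were also listed at 0 in all 3 adult libraries, and 2 genes showed the opposite. Smu1, a splicing factor, and Pold2, a subunit of DNA polymerase delta, were chosen from them after their values were seen. Smu1 was at 21.5, 20.4 and 12.8 in teratoma, 24.2, 29.7 and 25 in embryo and 19.2, 17.2 and 18.7 in adult cells. Pold2 was at 12.2, 12.6 and 14.1 in teratoma and 30.5, 35.1 and 23.7 in embryo cells and listed at 0 in all adult libraries. An exact 0 in this table can be a failed estimate, and whether it is one here was not tested.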
